A study of Mus musculus with 6 samples.

Results

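Tcf7-positive CD8 T cells without Havcr2 were 735 of the 51633 cells that passed the quality filters in 6 single-cell libraries, of 57078 cells deposited. They were chosen on raw UMI counts (a unique molecular identifier, UMI, stands for 1 captured mRNA molecule). A cell needed at least 3 UMIs of the T cell receptor and CD3 genes, at least 1 UMI of Cd8a or Cd8b1 and at least 1 UMI of Tcf7. It could hold no UMI of Havcr2, Cd4, Foxp3 or Cd79a, at most 5 of Lyz2 and the C1q genes, and at most 1 of the proliferation genes Mki67 and Top2a. The gate steps left 15177 cells with T cell receptor counts, 9038 with CD8 counts and 6209 non-cycling CD8 T cells after the exclusion genes. Of these, 3078 had no Havcr2 UMI and 735 of those had a Tcf7 UMI. They were compared with 2343 non-cycling CD8 T cells without Tcf7 and Havcr2 UMIs (Tcf7- Havcr2-) and with 3131 with Havcr2 UMIs (Havcr2+).

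Each library came from 1 female C57BL/6 mouse, a few weeks old at injection per the study's methods. The mouse carried KPCA, an ovarian cancer line in which homologous recombination repair is intact, injected into the ovarian bursa. The 6 treatments were control (solvent and rat IgG), the single agents 2DG, 2FF and anti-PD-L1, and the combinations of 2DG or of 2FF with anti-PD-L1, each named with a plus here. 2DG (2-deoxyglucose), injected once tumors were palpable, blocks glycolysis and also lowers branched N-glycans, and 2FF (2-fluorofucose), given by gavage to mice whose tumor cells had been pretreated with it, blocks fucosylation. The antibody blocks PD-L1, the ligand of the inhibitory receptor PD-1. Lymph node is the tissue on the labels, and the design text speaks of young and of aged mice, whereas the study's methods describe tumors and 1 age. Of 5 genes of lymph node stroma, Ccl19 had UMIs in 1 to 6 cells of a library, Ccl21a in at most 1 and Madcam1 in at most 2. Pdpn, which activated macrophages also express, had UMIs in 646 to 1792 cells (8.39 to 19.8%), and Cr2, which B cells also express, in 58 to 154. Keratin-positive cells, with at least 3 UMIs of Krt8 and Krt18, numbered 5 to 35 in a library. With 1 mouse for each treatment there was no replicate, so differences between treatments carry no test, whereas contrasts between gates were made inside each library and tested over all 6. Between 12 and 27 cell barcodes were shared by any pair of libraries. The barcodes of 7 Tcf7+ Havcr2- cells also occurred in another library, and none occurred as such a cell in both.

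Tcf7 encodes TCF-1, a high-mobility-group transcription factor that naive, memory and stem-like CD8 T cells need in order to persist and self-renew. In chronic infection and in tumors, TCF-1-positive cells include progenitors that keep PD-1 yet can divide and give rise to terminally exhausted cells, which lose TCF-1 and gain Tim-3, the product of Havcr2. Blood-borne naive and central memory CD8 T cells also express TCF-1, together with the lymph node homing receptor CCR7. Lef1 encodes the closest relative of TCF-1, and both bind the same DNA letters.

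Tcf7 lies on mouse chromosome 11 at 52252371 to 52283014 on the minus strand (ENSMUSG00000000782), and Havcr2 on the same chromosome at 46454935 to 46481255 on the plus strand (ENSMUSG00000020399). Lef1 lies on chromosome 3 at 131110471 to 131224356 (ENSMUSG00000027985) and Cd8a on chromosome 6 at 71373427 to 71379173 (ENSMUSG00000053977), all in GRCm38 with GENCODE M21 annotation. The letters CTTTGAA and CTTTGAT, those of the usual TCF site, were searched on both strands in the promoters of the listed stem and homing genes, taken as 250 bases before to 50 after each start in RefSeq (GRCm38.p6). Of the 21 listed genes 18 had a promoter there, and 1 of them, Foxp1, held a match, against 9.88% of all 27025 genes and 8.65% of all 32851 promoters in the table. The match is in 1 of 3 Foxp1 promoters and starts 205 bases before the start site. Shown are the 250 bases before that start, at chr6:99266516-99266765 on the minus strand with the reverse-strand match in capitals, and the 250 bases before the first Lef1 start, at chr3:131110047-131110296 on the plus strand, which hold no match.
Foxp1: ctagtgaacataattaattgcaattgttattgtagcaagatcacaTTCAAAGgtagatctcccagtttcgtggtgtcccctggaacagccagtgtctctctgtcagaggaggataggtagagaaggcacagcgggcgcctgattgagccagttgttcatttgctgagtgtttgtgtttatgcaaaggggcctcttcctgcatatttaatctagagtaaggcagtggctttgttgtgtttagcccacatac
Lef1: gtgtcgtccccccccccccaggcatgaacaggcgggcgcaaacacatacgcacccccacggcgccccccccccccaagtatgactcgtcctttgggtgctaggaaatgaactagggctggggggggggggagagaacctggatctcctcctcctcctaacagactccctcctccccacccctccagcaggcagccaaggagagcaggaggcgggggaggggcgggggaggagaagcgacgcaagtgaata
A match of letters is no evidence of binding, and its absence says only that these letters are not in this window.

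The gate used Tcf7 and Havcr2, so their levels describe the cells and are no result. Of the 735 cells, 365 held exactly 1 Tcf7 UMI, 170 held 2 and 200 held 3 or more, up to 12. Just outside the gate were 41 CD8 T cells with Tcf7 and 1 Havcr2 UMI and 47 with Tcf7 and at least 2 Havcr2 UMIs. A Tcf7 UMI was found in 23.9% of Havcr2-negative and 2.81% of Havcr2+ non-cycling CD8 T cells. The share was 0.862% of 6381 macrophages, which had a higher median depth in each library. Tcf7 stood at 445, 319, 377, 345, 335 and 344 CPM (each gene's share of the summed UMIs, scaled to 1e+06) in the control library, the 3 single-agent libraries (2DG, then 2FF, then anti-PD-L1) and the combinations (with 2DG first), the order used for all lists of values that follow. Cd8a, a chain of the receptor that marks the lineage, ranged from 201 CPM in the control library to 493 in the 2FF library, and Cd8b1, the other chain, from 229 to 465 CPM. In all, 82 cells held a single CD8 UMI.

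Per library the gate held 17, 165, 147, 152, 135 and 119 cells, with 143960, 1027467, 838493, 870716, 757577 and 844857 UMIs in sum, so values of the control library rest on the fewest molecules by far. Median UMIs per cell were 8237, 5674, 5437, 5162, 5474 and 6626. Except for the innate lymphoid set, markers of other cell types were low. The innate lymphoid markers summed to 618 to 1328 CPM, with Rora at 4626 of 4877 UMIs. They stood at 834 to 1744 CPM in Tcf7- Havcr2- cells and 822 to 1785 CPM in Havcr2+ cells. The regulatory T cell markers, with Foxp3 at 0 by the gate, summed to 31.1 to 139 CPM and the dendritic markers to 54.5 to 176 CPM. The macrophage markers summed to 60.9 to 89.4 CPM and the natural killer markers to 118 to 248 CPM, inside each library below the value of Tcf7- Havcr2- cells (242 to 381 CPM). The gate itself allowed at most 5 UMIs of Lyz2 and the C1q genes in a cell, so a low macrophage sum was partly fixed by the choice. The neutrophil markers summed to 9.47 to 155 CPM. In the anti-PD-L1 library 49 of 51 S100a8 UMIs came from 1 cell marked as a doublet. Of the B cell markers, Cd79a was 0 by the gate and Ighm made up 196 of 199 UMIs. The plasma cell markers were at 233 CPM in the 2FF plus anti-PD-L1 library, where 1 cell held 128 Jchain UMIs.

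Against both other CD8 gates, Tcf7+ Havcr2- cells were higher in the quiescence factors Lef1, Bach2, Foxp1 and Klf2 and in the IL-7 receptor gene Il7r. They were lower in most inhibitory receptors, in the cytotoxic genes Gzmb and Prf1 and in the chemokine Ccl5. UMIs were summed per library and gate and tested with edgeR's quasi-likelihood test with library as a block, and p-values were adjusted over all genes by Benjamini-Hochberg. Against Tcf7- Havcr2- cells, 684 of 9086 genes (7.53%) were higher and 613 (6.75%) lower. Against Havcr2+ cells, 1396 of 10067 (13.9%) were higher and 1431 (14.2%) lower. The median log2 fold change of all genes was -0.01 in both. The 19 genes of the gate were left out of these counts. Depth and mitochondrial share moved with the gates: median UMIs were 4787, 5226, 4754, 4960, 4896 and 6607 in Tcf7- Havcr2- cells and 6726, 6637, 6192, 6662, 6397 and 8213 in Havcr2+ cells, and the median mitochondrial share was 1.92 to 2.44% in Tcf7+ Havcr2- cells, higher than in both other gates in each library (1.72 to 2.16% and 1.48 to 2.08%). With all cells thinned to 2000 UMIs, 96 of 109 and 129 of 141 named calls held, and the part of the mitochondrial share was not tested.

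**Figure D1:**
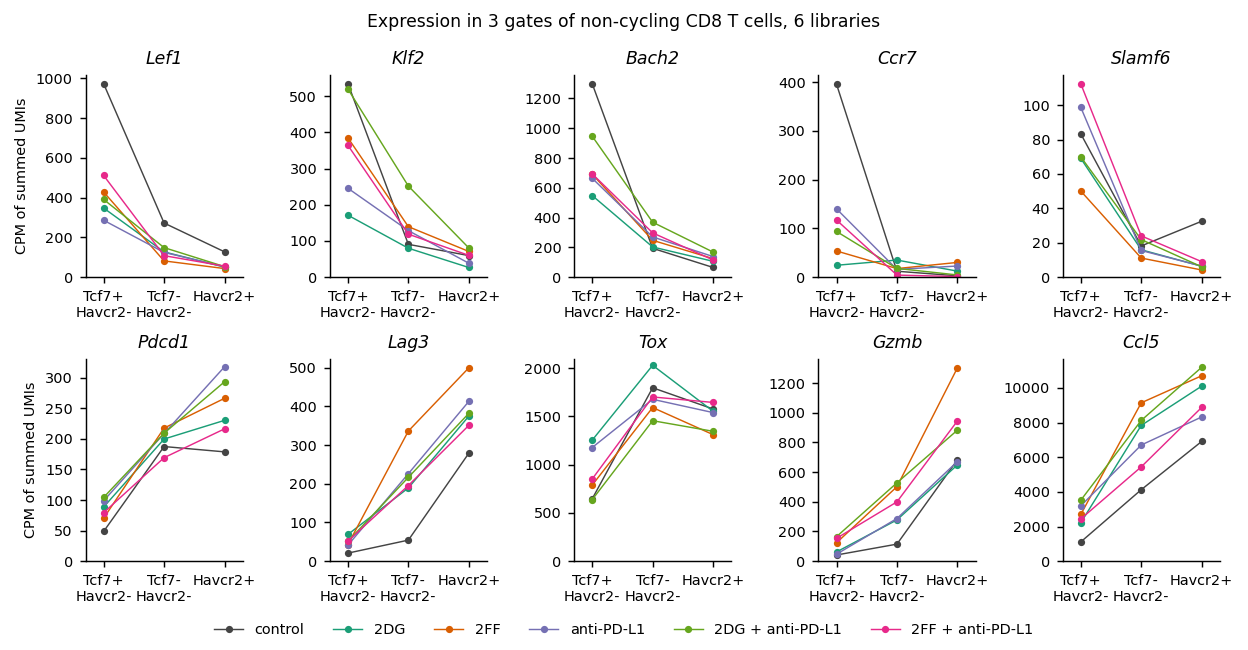
CPM of summed UMIs (vertical axes, linear and starting at 0) of 10 genes in the 3 gates of non-cycling CD8 T cells, with 1 point per library and lines joining the gates of a library. Lef1, Klf2, Bach2 and Slamf6 were highest in Tcf7+ Havcr2- cells in each of the 6 libraries, Ccr7 in 5 of 6, and Pdcd1, Lag3, Tox, Gzmb and Ccl5 were lowest there in each.

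Most of the stem and quiescence factors were higher, Lef1 among them. In Tcf7+ Havcr2- cells Lef1 stood at 972, 347, 428, 286, 391 and 511 CPM, against 272, 127, 81.6, 124, 148 and 108 CPM in Tcf7- Havcr2- cells and 127, 50.3, 43.2, 52.5, 53.0 and 55.2 CPM in Havcr2+ cells. The control library was the highest in all 3 gates, and the lowest of the Tcf7+ values, 286 CPM, was above the highest of the Tcf7- values. The log2 fold change was 1.77 ± 0.13 (SE, n = 6 libraries) against Tcf7- Havcr2- cells (edgeR adjusted p = 4.33e-08) and 2.98 ± 0.11 against Havcr2+ cells (edgeR adjusted p = 9.54e-12). Bach2, a repressor that restrains effector differentiation, ran from 548 to 1299 CPM, without overlap with the 193 to 369 CPM of Tcf7- Havcr2- cells, and its log2 fold changes were 1.5 ± 0.11 and 2.63 ± 0.14. Foxp1, which keeps naive T cells quiescent, was higher by 1.25 ± 0.08 and 1.83 ± 0.08, and Satb1, a chromatin organiser of T cells, by 1.21 ± 0.14 and 1.0 ± 0.15. Klf2, which drives the exit and homing receptors, was higher by 1.34 ± 0.12 and 2.69 ± 0.09. Its values of 171 to 535 CPM overlapped the 80.0 to 252 CPM of the Tcf7- Havcr2- gate between libraries, but were higher inside every library.

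Of the 10 listed stem and quiescence factors, 9 passed the count filter against Tcf7- Havcr2- cells, and 8 were higher, none lower, with a median log2 fold change of 1.34. Against Havcr2+ cells 10 of 10 were higher, with a median of 2.45. One of these calls, Bcl6 at 0.35, was lost with DESeq2, without the library block and without the 2DG, the anti-PD-L1 or the 2FF plus anti-PD-L1 library, and was -0.02 with thinned cells. The exception in the first contrast was Bcl6, a transcriptional repressor, at 0.02 (edgeR adjusted p = 0.962). Id3, an inhibitor of E proteins, was tested only against Havcr2+ cells and was higher by 3.26 ± 0.37. It reached the count filter (100 UMIs over the sums) only with the UMIs of Tcf7+ Havcr2- cells, as did Myb in the first contrast, and such genes lean towards higher values by the filter itself. Myb, which maintains stem-like CD8 T cells, was higher by 2.31 ± 0.26 and 2.27 ± 0.29, in 5 of 6 libraries. Without the control library the same list gave 8 of 9 higher with a median of 1.28, and 10 of 10 with a median of 2.38.

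Of 11 listed genes of lymphoid homing and the naive state, 9 passed the count filter in each contrast. In each, 4 reached it on the UMIs of the other gate alone, Ccr7, Il7r and Sidt1 in both, S1pr1 against Tcf7- Havcr2- cells and Cd55 against Havcr2+ cells, and these 4 were higher. The Cd55 call was lost without the cells that held Ighm or Ms4a1 UMIs and without the 2FF plus anti-PD-L1 library. The other 5, among them Dapl1 and Nsg2, were also called higher but reached the filter only with the UMIs of Tcf7+ Havcr2- cells. Ccr7, the chemokine receptor for the T cell zone, stood at 396, 24.3, 53.7, 140, 93.7 and 117 CPM against 12.1, 35, 17.5, 15.9, 17.9 and 4.2 CPM in Tcf7- Havcr2- cells. The 2DG library was the exception, with the Tcf7- value above the Tcf7+ value. Over the 6 libraries Ccr7 was higher by 2.3 ± 0.39 and 2.93 ± 0.47 (edgeR adjusted p = 0.000445 and 0.000145). S1pr1, the receptor for exit from tissue, was higher by 1.78 ± 0.22 and 3.91 ± 0.24, and Il7r, the receptor for the survival cytokine IL-7, by 1.56 ± 0.09 and 2.29 ± 0.13. Dapl1, a gene of resting CD8 T cells, had the highest log2 fold change of the ranked genes in both contrasts, 3.97 ± 0.37 and 5.74 ± 0.46, at 11.5 to 34.7 CPM against at most 2.86 CPM, and with 103 UMIs in Tcf7+ Havcr2- cells against 18 and 9 UMIs in the other gates.

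Several of these genes, among them Ccr7, Bach2, St6gal1 and Aff3, are also expressed by B cells, and B cell markers moved with the gate. Their sum was 41.7, 38.0, 39.4, 33.3, 26.4 and 85.2 CPM in Tcf7+ Havcr2- cells, 4.80 to 11.1 CPM in Tcf7- Havcr2- cells and 2.91 to 16.3 CPM in Havcr2+ cells. A UMI of Ighm or Ms4a1 was found in 108 of the 735 cells (14.7%, exact 95% interval 12.2 to 17.5), in 3.71% of Tcf7- Havcr2- cells, in 3.23% of Havcr2+ cells and in 12.1% of macrophages. Ms4a1 had 3 UMIs in all of the 735 cells. Without the cells that held such a UMI, an alternative added after these values were seen, Ccr7 was higher by 2.17 and 2.84, Bach2 by 1.41 and 2.53 and Lef1 by 1.5 and 2.70, each still past the threshold. Of the stem factors 8 of 9 tested remained higher against Tcf7- Havcr2- cells with a median of 1.20.

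**Figure D2:**
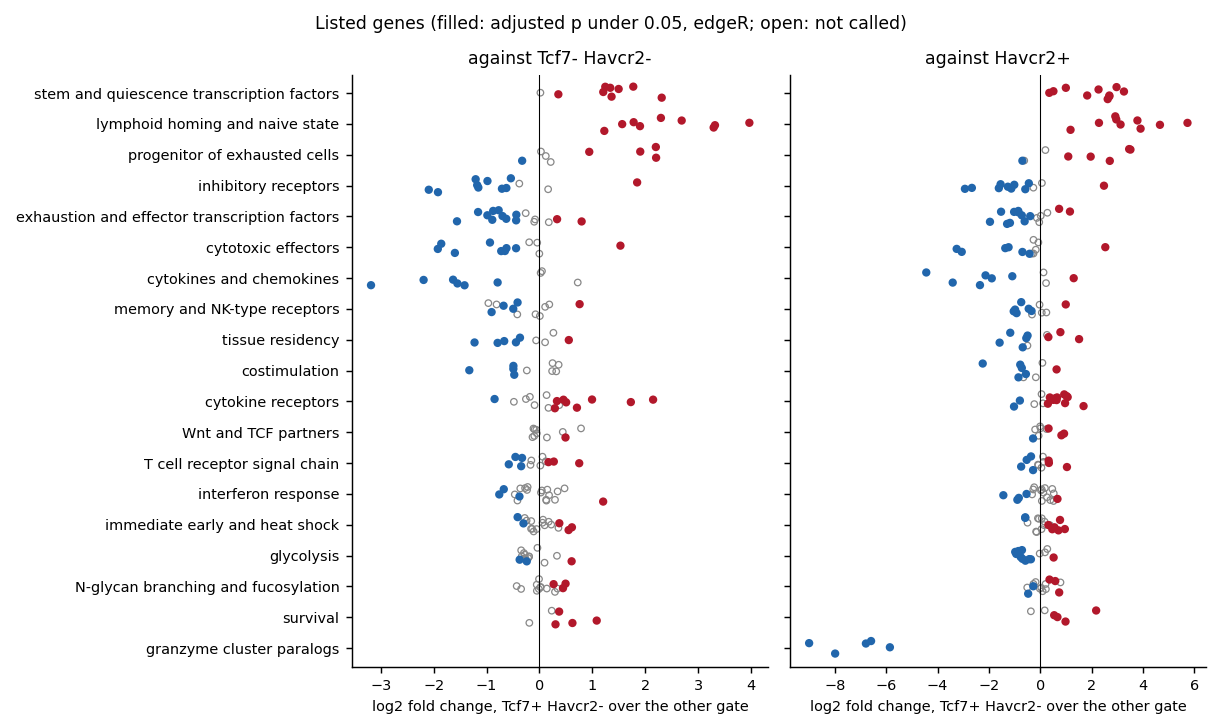
Log2 fold change (horizontal axes) of each tested gene of 19 lists, in Tcf7+ Havcr2- cells over Tcf7- Havcr2- cells (left) and over Havcr2+ cells (right), with red and blue for called genes and open points for the rest. The stem and homing genes lie to the right of 0 in both panels, and most inhibitory receptors and chemokines to the left. The granzyme cluster paralogs had almost no UMIs in Tcf7+ Havcr2- cells, so that their fitted values depend on the prior count.

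Genes linked to progenitors of exhausted cells were split. Slamf6, a surface receptor used to find such progenitors, stood at 83.4, 69.1, 50.1, 98.8, 70.0 and 112 CPM, above the 11.1 to 24.0 CPM of Tcf7- Havcr2- cells without overlap, and was higher by 2.21 ± 0.15 and 3.52 ± 0.21. A Slamf6 UMI was found in 24.8% of Tcf7+ Havcr2- cells and in 26.3% of macrophages, which were deeper. With cells thinned to 2000 UMIs the shares were 12.2% and 7.0%. Tnfsf8, the ligand of CD30, was higher by 1.91 and 3.47, Cxcr5, the receptor for B cell follicles, by 2.20 and 2.71, and Cxcr3, the receptor for Cxcl9 and Cxcl10, by 0.94 and 1.97. Xcl1, a chemokine that attracts type 1 dendritic cells, ranged from 20.8 to 266 CPM and did not pass against Tcf7- Havcr2- cells (0.03, edgeR adjusted p = 0.945), with a value of 1.09 ± 0.30 against Havcr2+ cells (edgeR adjusted p = 0.0114), higher in 4 of 6 libraries. That call was lost with DESeq2, without the library block and without the 2FF library. Il21r, the receptor for a cytokine of helper T cells, was lower by log2 fold changes of -0.33 and -0.69. That call was lost in the first contrast with thinned cells and without the library block. Cxcr5 reached the count filter only with the UMIs of Tcf7+ Havcr2- cells. Of the genes that reached it on the other gate alone, 3 of 6 were higher in the first contrast and 4 of 7 in the second. B cells also express Cxcr5, and without the cells that held Ighm or Ms4a1 UMIs it was no longer tested, with 3 of 7 genes higher in the first contrast and 4 of 7 in the second.

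Inhibitory receptors were lower as a group. Of 12, 9 were lower and 1 higher in each contrast, with median log2 fold changes of -0.85 and -1.07. Pdcd1, which encodes PD-1, stood at 48.6, 88.6, 70.4, 98.8, 104 and 79.3 CPM, against 187, 200, 218, 209, 209 and 169 CPM in Tcf7- Havcr2- cells and 179 to 318 CPM in Havcr2+ cells, without overlap. Its log2 fold changes were -1.18 ± 0.10 (edgeR adjusted p = 3.05e-07) and -1.54 ± 0.10 (edgeR adjusted p = 4.42e-09). Lag3, a receptor for MHC class II, was lower by -2.10 ± 0.15 and -2.93 ± 0.13, and Entpd1, the ectoenzyme CD39 of terminally exhausted cells, by -1.92 ± 0.14 and -2.66 ± 0.13. Btla was the receptor that went the other way. It stood at 41.3 to 91.1 CPM against 13.5 to 26.5 CPM in Tcf7- Havcr2- cells, and was higher by 1.85 ± 0.15 and 2.48 ± 0.16. Cd160 and Vsir passed in neither contrast.

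Among transcription factors of exhaustion and effector function, 10 of 16 were lower and 2 higher in each contrast, with medians of -0.54 and -0.66. Tox, which installs the exhausted state, stood at 646, 1254, 788, 1177, 638 and 851 CPM against 1796, 2029, 1591, 1676, 1455 and 1701 CPM in Tcf7- Havcr2- cells. The groups did not overlap, and the log2 fold changes were -0.89 ± 0.08 and -0.72 ± 0.11. A Tox UMI was nevertheless found in 74.1% of Tcf7+ Havcr2- cells, against 5.52% of macrophages. Prdm1, which encodes the effector regulator Blimp-1, was lower by -1.56 and -1.96, and Id2, which favours effector cells, by -0.99 ± 0.06 and -1.29 ± 0.07. Nr4a1, induced by T cell receptor signals, was higher by 0.80 and 1.16, whereas its relative Nr4a2 was lower by -0.63 and -0.85, the first of these calls being lost with DESeq2. Eomes, shared by memory and exhausted cells, passed in neither contrast.

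Cytotoxic genes followed the same direction with exceptions. Gzmb, which encodes granzyme B, stood at 41.7, 62.3, 124, 47.1, 165 and 154 CPM against 115, 278, 502, 287, 528 and 400 CPM in Tcf7- Havcr2- cells and 649 to 1302 CPM in Havcr2+ cells. Values of different libraries overlapped, and inside each library Tcf7+ Havcr2- cells were lower, by -1.86 ± 0.12 and -3.06 ± 0.16 on the log2 scale. Prf1, the pore protein, was lower by -1.92 ± 0.12 and -3.26 ± 0.15. Gzmm, a granzyme of innate-type lymphocytes, was called higher, by 1.53 and 2.54, but reached the count filter only with the 63 UMIs of Tcf7+ Havcr2- cells. Gzmk, a granzyme of memory-type cells, was lower by -0.62 against Tcf7- Havcr2- cells, a call lost with thinned cells and without the 2FF, the anti-PD-L1 or the 2DG plus anti-PD-L1 library, and did not pass against Havcr2+ cells (-0.32, edgeR adjusted p = 0.27). Of 12 cytotoxic genes 8 and 6 were lower, and none of the 11 that reached the filter on the other gate alone was higher. The neighbouring granzymes Gzmc to Gzmg are near-identical copies among which reads can be split, so their single values are uncertain. Gzmf had 0 of 4483070 UMIs in Tcf7+ Havcr2- cells against 772 UMIs in 31 Havcr2+ cells, at least 51.9-fold lower on a floor of 3 counts over the gate. It passed the count filter through the Havcr2+ cells, and its call was lost with DESeq2.

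Inflammatory cytokines and chemokines were lower, 6 of 9 tested in each contrast, with 1 higher against Havcr2+ cells, and medians of -1.42 and -1.89. Ccl5, an abundant chemokine of effector and memory CD8 T cells, stood at 1111, 2217, 2695, 3192, 3518 and 2437 CPM against 4124, 7835, 9139, 6703, 8122 and 5442 CPM in Tcf7- Havcr2- cells, without overlap, at -1.42 ± 0.09 and -1.89 ± 0.12. Ifng stood at 41.7, 160, 152, 208, 205 and 84.0 CPM and was lower by -1.55 ± 0.15 and -2.13 ± 0.15. Csf1, the growth factor of macrophages, gave -3.19 ± 0.42 and -4.44 ± 0.35, at a mean of 4.25 CPM against 34.3 and 84.4 CPM. With 17 UMIs in Tcf7+ Havcr2- cells against 492 in Tcf7- Havcr2- cells, it passed the count filter through the gate where it was higher. Tnf and Ltb passed in neither contrast.

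Receptors for cytokines other than IL-7 were more often higher than lower, 8 of 16 higher and 1 lower against Tcf7- Havcr2- cells (6 of the 14 that reached the count filter on that gate alone) and 11 higher and 2 lower against Havcr2+ cells. Il6ra, the IL-6 receptor, was higher by 2.15 ± 0.28, with 114 UMIs against 77 and the filter reached only with the former, and by 1.69 ± 0.25 and its signalling partner Il6st by 0.99 and 1.03, whereas Il12rb1, a receptor chain for the effector-promoting IL-12, gave -0.85 and -1.02, both calls being lost with thinned cells. Its call against Tcf7- Havcr2- cells was also lost with DESeq2, without cells that held Ighm or Ms4a1 UMIs and without any 1 of 4 libraries (2DG, 2FF and both combinations). Of the residency genes, Cxcr6, a chemokine receptor of tissue-resident cells, was lower by -1.23 ± 0.10 and -1.58 ± 0.09, and Itga1, a collagen receptor, by -0.79 and -0.68. Itgb1, the beta chain of several matrix integrins, was higher by 0.55 and 1.51. The list gave 1 higher and 5 lower of 9, and 3 higher and 5 lower of 10. Memory and NK-type receptors gave 1 higher and 4 lower of 12, and 1 higher and 6 lower of 11. Ly6c2, a surface protein of memory CD8 T cells, was the one higher, by 0.76 and 1.0.

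Cd28, the receptor of the main costimulatory signal, stood at 438, 770, 664, 999, 851 and 723 CPM in Tcf7+ Havcr2- cells and at 816, 548, 565, 756, 539 and 670 CPM in Tcf7- Havcr2- cells. The control library ran against the other 5, and the difference of 0.32 ± 0.11 did not pass (edgeR adjusted p = 0.0604). Against Havcr2+ cells Cd28 was higher by 0.64 ± 0.11 (edgeR adjusted p = 3.71e-04), in 5 of 6 libraries. Of the other costimulatory genes, Tnfrsf9, the activation-induced receptor 4-1BB, was lower by -1.33 and -2.24. Cd27, a receptor for CD70, was lower by -0.49 and -0.85, the first of these calls being lost with thinned cells. The list gave none higher and 4 lower of 9, and 1 higher, Cd28, and 5 lower.

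Survival genes were higher in 4 of 6 cases and lower in none in each contrast. Bcl2, which blocks apoptosis, stood at 1285, 947, 977, 1135, 1246 and 1442 CPM against 738, 632, 409, 543, 517 and 634 CPM in Tcf7- Havcr2- cells, without overlap, and was higher by 1.08 ± 0.08 and 2.18 ± 0.17. Its opponent Bcl2l11, which encodes Bim, was higher too, by 0.62 and 0.99. Glycolysis genes were lower mainly against Havcr2+ cells, 11 of 15 with a median of -0.69, against 2 of 15 with a median of -0.24 in the other contrast. Over the alternatives 10 to 11 were lower against Havcr2+ cells and 0 to 5 against Tcf7- Havcr2- cells. Gapdh gave -0.38 ± 0.08 and -0.90 ± 0.08. The hexokinase gene Hk2 went the other way, at 0.61 and 0.52, but the first call was lost with DESeq2 and without any 1 of 4 libraries (2DG, 2FF, anti-PD-L1 and 2DG plus anti-PD-L1). Ribosomal protein genes were higher in 71 and 72 of 81, with none and 1 lower, at medians of 0.35 and 0.41. Without the library block 16 and 46 of them were called higher, with the medians above 0 under every alternative tried.

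Partners of TCF-1 and components of the Wnt route were mostly unresolved, 1 of 10 being higher against Tcf7- Havcr2- cells, and 3 higher and 1 lower of 9 against Havcr2+ cells. The lower gene, Tle5 (-0.28), was lost without any 1 of the 5 treated libraries, with thinned cells and without cells that held Ighm or Ms4a1 UMIs. Of the higher genes, Ctnnb1 (0.33), which encodes beta-catenin, was lost with no count filter, in both of those cell subsets and without the 2DG, the anti-PD-L1 or the 2FF plus anti-PD-L1 library. Tle4, a corepressor of the Groucho family that binds TCF factors, was the gene higher in both, by 0.49 ± 0.08 and 0.93 ± 0.08. Axin2, a classical Wnt target, gave 0.79 (edgeR adjusted p = 0.122). For the N-glycan genes, which the study's 2DG and 2FF treatments concern, 3 of 14 were higher and none lower, and 3 higher and 2 lower. Over the alternatives 1 to 3 were higher in the first contrast and 0 to 2 lower in the second. Of the lower genes Mgat2, an early branching enzyme, gave -0.47 and was lost with DESeq2, with thinned cells, without cells that held Ighm or Ms4a1 UMIs and without any 1 of 4 libraries (2DG, 2FF and both combinations). Mgat5, which starts the branch most linked to T cell receptor restraint, stood at 424, 383, 279, 405, 434 and 352 CPM against 242, 301, 267, 292, 279 and 274 CPM in Tcf7- Havcr2- cells, higher inside each library by 0.44 ± 0.08 (edgeR adjusted p = 0.00102). Against Havcr2+ cells it was higher by 0.59 ± 0.09. Fut8, the core fucosyltransferase, gave -0.05 and -0.27 (edgeR adjusted p = 0.817 and 0.0244), the second call being lost with thinned cells, without cells that held Ighm or Ms4a1 UMIs and without the 2DG, the 2FF or the anti-PD-L1 library. The interferon list gave 1 higher and 3 lower of 19, and 1 higher and 4 lower of 18. The first of these higher genes, Ifi208, reached the count filter only with the UMIs of Tcf7+ Havcr2- cells and was lost with DESeq2. Of the genes lower in the first contrast, Zbp1 and Isg15 were lost with thinned cells, without the block and without cells that held Ighm or Ms4a1 UMIs. Zbp1 was also lost with DESeq2 and without the 2DG, the anti-PD-L1 or the 2DG plus anti-PD-L1 library. Immediate early and heat shock genes gave 3 higher and 2 lower, and 6 higher and 2 lower, of 18. T cell receptor signalling genes gave 3 higher and 4 lower of 12 in both. The medians of these lists and of the Wnt list lay between -0.07 and 0.10, and most of them changed sign under some alternative.

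Genes outside the lists were ranked among those called in the same direction in the libraries with enough cells. St6gal1, a sialyltransferase, was higher by 3.16 ± 0.22 and 4.29 ± 0.25, at 35.6 to 215 CPM against 2.50 to 12.1 CPM in Tcf7- Havcr2- cells. In both contrasts St6gal1 reached the count filter only with the UMIs of Tcf7+ Havcr2- cells. Aff3, of the AFF family of transcription elongation proteins, stood at a mean of 518 CPM against 76.8 and 28.3 CPM, and was higher in 6 of 6 libraries in both contrasts. Cmah, which makes the sialic acid Neu5Gc, was higher by 2.65 and 4.19. Fgf13, an intracellular member of the FGF family, was among the highest against Havcr2+ cells, with 449 to 577 CPM against 13.5 to 56.2 CPM. At the other end, Il1r2, the decoy receptor for IL-1, stood at 48.6, 4.87, 44.1, 6.89, 22.4 and 20.1 CPM against 726, 80.0, 143, 56.2, 78.3 and 73.2 CPM in Tcf7- Havcr2- cells, -2.38 ± 0.23. Slc17a6, a vesicular glutamate transporter, was lower by -3.24 and -4.33, and the chemokine Ccl1 by -4.38 ± 0.50, lower in 5 libraries and at 0 in both gates of the control library. Il1r2, Slc17a6 and Ccl1 each passed the count filter through the gate where they were higher, so they lean towards lower values by the filter itself. Tcf7+ Havcr2- cells also had fewer genes detected when each cell was thinned to 2000 UMIs, by 21.5 ± 10.3 genes (SD, n = 6) against Tcf7- Havcr2- cells and 29.9 ± 9.22 against Havcr2+ cells, in 6 of 6 libraries in both (exact two-sided paired permutation test, adjusted p = 0.03125, the smallest that 6 pairs allow).

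The cells were not uniform. A UMI of Ccr7 without Pdcd1 was found in 87 cells, Pdcd1 without Ccr7 in 180, both in 15 and neither in 453. These classes were drawn on measured UMIs, so their values are a description with no test, and their median depths of 6989, 5588.5, 8398 and 5367 UMIs differ. Ccr7 was found in 7.69% of Pdcd1-positive cells (exact 95% interval 4.37 to 12.4) and in 16.1% of Pdcd1-negative cells (13.1 to 19.5). The share was lower in Pdcd1-positive cells in 5 of 6 libraries, and in the anti-PD-L1 library it was 14.0% against 13.8%. The Ccr7 class held 1267 CPM of Lef1 against 181 CPM in the Pdcd1 class and 315 CPM in cells with neither. It also held more Satb1 (1724 against 362 CPM), Klf2 (828 against 181), Bach2 (1731 against 510) and Bcl2 (2271 against 910). The 15 cells with both stood nearer to the Pdcd1 class in these genes, with 0 CPM of Lef1, 166 CPM of Satb1, 75.6 CPM of Klf2, 642 CPM of Bach2 and 1436 CPM of Tox, although they held 907 CPM of Ccr7 against 470 CPM in the Ccr7 class. Markers of other cell types moved with the classes. An Ighm UMI was found in 43.7% of the Ccr7 class (80.1 CPM), in 7.78% of the Pdcd1 class (63.1 CPM) and in 11.5% of cells with neither (28.1 CPM), with Cd79a at 0 by the gate and Ms4a1 at 0 in the Ccr7 and Pdcd1 classes. H2-Ab1 stood at 170, 34.4 and 44.0 CPM in these classes. Jchain stood at 122 CPM and S100a9 at 77.1 CPM in the Pdcd1 class, in 2.22% and 5.56% of its cells. Both were at most 1.57 CPM in the other classes. In the 15 cells with both, the dendritic marker Flt3 stood at 75.6 CPM (13.3% of cells), against 20.4 CPM in the Ccr7 class and 0 in the other classes. Tnfsf4, a costimulatory ligand, stood there at 295 CPM and Irf8, a transcription factor of dendritic and B cells, at 242 CPM, the highest of the 4 classes. The part of these markers in the differences was not tested. The Pdcd1 class held more Tox (1382 against 368 CPM), Ctla4 (516 against 113), Ifng (208 against 39.3), Lag3 (96.6 against 7.85) and Xcl1 (176 against 25.1). Cells with neither were close to the Pdcd1 class in Ccl5, at 2997 against 3090 CPM, with 1261 CPM in the Ccr7 class. Slamf6 was found in 21.5% of Pdcd1-positive and 25.9% of Pdcd1-negative cells, a difference smaller than the counting interval of the first share. By class its share was 46.0% with Ccr7 alone, 40% with both, 20% with Pdcd1 alone and 22.1% with neither. Gzmb stood at 39.9 CPM in the Pdcd1 class, 51.8 CPM in the Ccr7 class and 148 CPM in cells with neither.

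**Figure D3:**
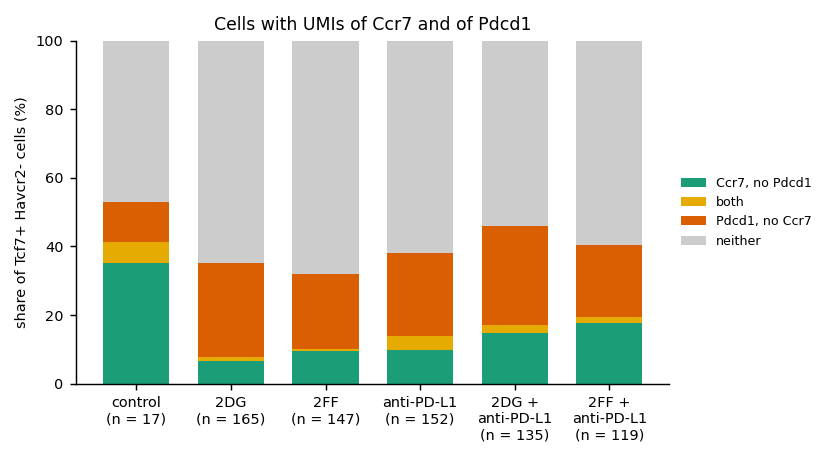
Share of Tcf7+ Havcr2- cells (vertical axis, %) of each library with UMIs of Ccr7 alone, of Ccr7 and Pdcd1, of Pdcd1 alone and of neither. The class with Ccr7 alone made up 35.3% of the 17 control cells and 6.67% to 17.6% of the cells of the other 5 libraries.

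By library the class with Ccr7 and no Pdcd1 made up 35.3, 6.67, 9.52, 9.87, 14.8 and 17.6%, and the class with Pdcd1 alone 11.8, 27.3, 21.8, 24.3, 28.9 and 21.0%. The control library, with 6 of 17 cells in the first class (exact 95% interval 14.2 to 61.7%), was the highest, and the 2DG library was the lowest.

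Tcf7+ Havcr2- cells were a minority of non-cycling CD8 T cells in every library. Their shares were 16.5% (exact Clopper-Pearson 95% interval 9.92 to 25.1, 17 of 103 cells) in the control, 16.1% (13.9 to 18.4, of 1028) in the 2DG, 9.34% (7.95 to 10.9, of 1574) in the 2FF, 11.7% (10.0 to 13.6, of 1298) in the anti-PD-L1, 9.45% (7.98 to 11.1, of 1429) in the 2DG plus anti-PD-L1 and 15.3% (12.9 to 18, of 777) in the 2FF plus anti-PD-L1 library. The intervals cover counting error and not the difference between mice. Those of 2DG and of 2FF plus anti-PD-L1 lay above those of 2FF and of 2DG plus anti-PD-L1, and the control interval overlapped all others. For the shares, thinning was applied to the Tcf7 and Havcr2 counts of a cell, and the other gate steps kept full counts. It thus removed differences of depth for Tcf7 and Havcr2 only. With each cell thinned to 2000 UMIs in this way, the shares were 10.5, 8.52, 5.59, 7.01, 5.43 and 8.49%. At most 1 Tcf7+ Havcr2-, 25 Tcf7- Havcr2- and 4 Havcr2+ cells of a library were shallower and were left out. In the control library these were 9 of 36 Tcf7- Havcr2- cells, 2 of 50 Havcr2+ cells and 0 of 17 Tcf7+ Havcr2- cells. Of all cells that passed the filters they were 0.187, 2.14, 1.59, 1.73, 1.5 and 1.52%. The control library was low on this scale because it held 103 non-cycling CD8 T cells among 9075.

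**Figure D4:**
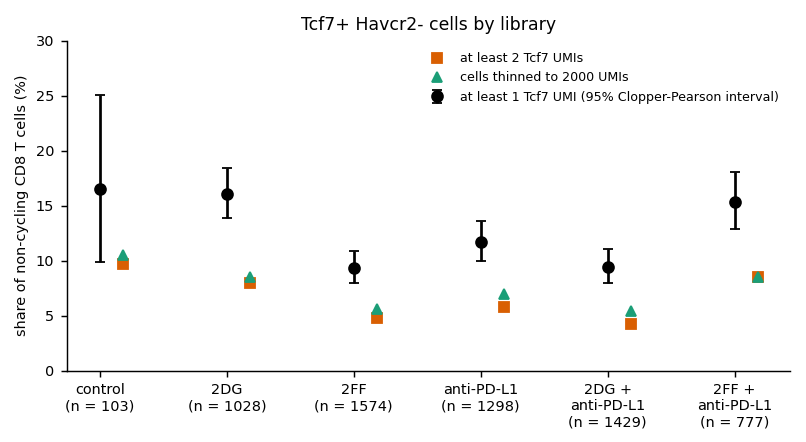
Share of Tcf7+ Havcr2- cells among non-cycling CD8 T cells (vertical axis, %) in each library, with the exact 95% interval for counting error, and the same share with at least 2 Tcf7 UMIs required or with cells thinned to 2000 UMIs. The 2FF and 2DG plus anti-PD-L1 libraries were lowest on all 3 measures.

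Treatments were compared inside the gate as log2 ratios of CPM with 5 added, for genes whose UMIs in both libraries came to 50 or more, and called past 2-fold. The 3 single treatments share the control library of 17 cells, and the combinations share the anti-PD-L1 library, so the columns are not independent. Against control, 280 of 3828 genes (7.31%) were higher and 179 (4.68%) lower with 2DG, 244 of 3476 (7.02%) and 150 (4.32%) with 2FF, and 257 of 3564 (7.21%) and 137 (3.84%) with anti-PD-L1. Against anti-PD-L1, 47 of 4781 (0.983%) and 92 (1.92%) passed with 2DG plus anti-PD-L1, and 36 of 4935 (0.729%) and 49 (0.993%) with 2FF plus anti-PD-L1. The medians over all genes were 0.04, 0.07, 0.07, -0.08 and -0.03 in these 5 comparisons.

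Most stem and homing genes stood lower in the 2DG, 2FF and anti-PD-L1 libraries than in control. The medians were -1.61, -0.86 and -0.94 for the 3, 3 and 4 homing genes measured, of which 3, 1 and 2 passed 2-fold, and -1.36, -0.68 and -0.89 for 8 stem factors, of which 5, 2 and 3 passed. Bcl6 ran the other way past 2-fold, at 1.46, 1.66 and 1.54, and Foxo1 stood at 0.67, 0.44 and 0.86. Immediate early and heat shock genes, which respond to cell handling, were lower in the same comparisons, at medians of -0.90, -0.84 and -0.73 with 7, 6 and 7 genes past 2-fold, and their part in the ratios was not tested. Lef1 had log2 ratios of -1.47, -1.17 and -1.75, and Ccr7 of -3.77, -2.77 and -1.47. In the 2DG and 2FF comparisons Ccr7, among the homing genes measured, reached the minimum of 50 UMIs only with those of the control library. Its ratios there thus lean towards lower values by the minimum itself. The control value of Ccr7 was 57 UMIs (396 CPM, exact 95% Poisson interval 300 to 513), above the intervals of every other library, with 24.3 CPM of Ccr7 (15.7 to 35.9) in the 2DG library. Pdcd1 stood higher by 0.80, 0.49 and 0.95 and Ifng by 1.82, 1.75 and 2.19. The control values of both genes rest on few UMIs, those of Pdcd1 in 3 of 17 cells, so the counting error of these ratios is large. The control library also held the larger share of cells with Ccr7 given above, and the part of that share in these ratios was not tested. Cytokine genes had medians of 0.96, 1.11 and 0.85 and cytotoxic genes of 0.51, 0.71 and 0.53. Of the cytokine genes 4 of 6, 4 of 6 and 5 of 7 stood above 0. Ccl3 ran the other way, at -1.77, -2.34 and -0.68, as did Ccl4, at -0.34, -0.57 and -0.27.

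**Figure D5:**
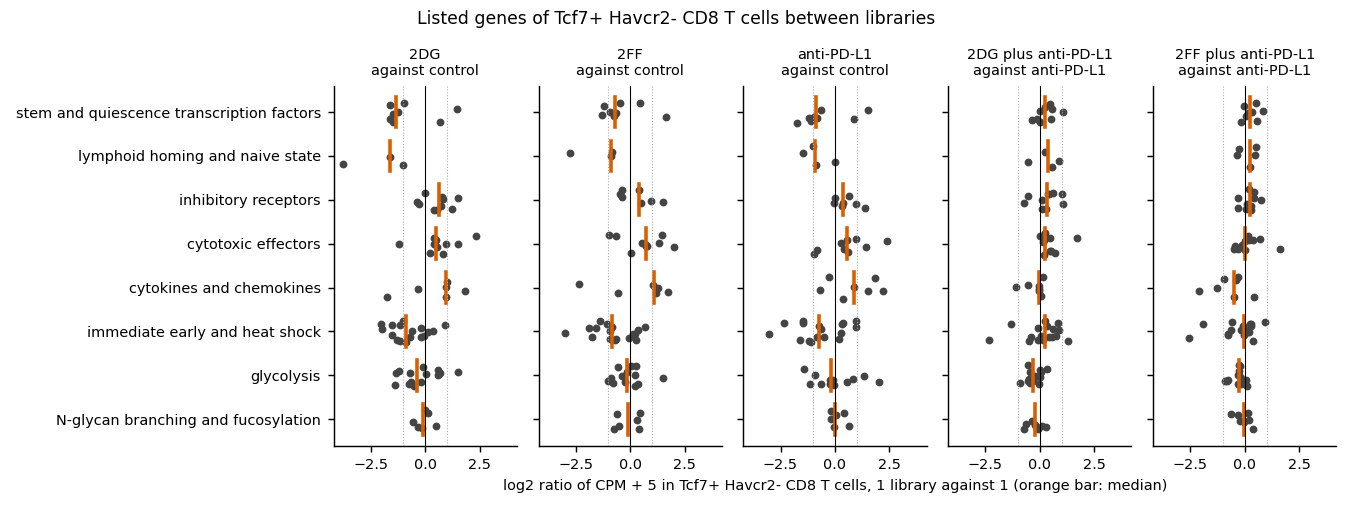
Log2 ratio of CPM with 5 added (horizontal axes) of each listed gene in Tcf7+ Havcr2- cells, in 5 comparisons of 1 library with 1 library, with an orange bar at the median of a list and dotted lines at 2-fold. Stem and homing medians lie below 0 in the 3 comparisons with control and above 0 in both comparisons with anti-PD-L1.

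Some of the single genes in these comparisons had a like order of libraries in another CD8 gate, and others did not. Hspa1b, an inducible heat shock chaperone, was at 903, 225, 111, 108, 17.2 and 24.9 CPM in Tcf7+ Havcr2- cells and at 605, 181, 99.9, 82.9, 12.2 and 81.6 CPM in Tcf7- Havcr2- cells, highest in the control library in both. Cables1, a cell cycle adaptor, had 1 UMI in the control cells against 339 in the 2DG cells (6.95 against 330 CPM), but 290 CPM in the Tcf7- Havcr2- cells of the same control library. Abcb1b, a drug efflux pump, stood at 90.3, 149, 128, 146, 450 and 218 CPM, and its 2DG plus anti-PD-L1 value was the highest also in Tcf7- Havcr2- cells (402 CPM) and Havcr2+ cells (364 CPM). Its log2 ratio against anti-PD-L1 was 1.59, with exact 95% Poisson intervals of 404 to 500 against 122 to 173 CPM. Gzmb had a ratio of 1.71 in the same comparison and of 1.61 in 2FF plus anti-PD-L1. Cxcl10, an interferon-induced chemokine, had a ratio of 2.76 in 2DG plus anti-PD-L1 (137 against 16.1 CPM), with 38 of its 104 UMIs in 1 cell and a ratio of 2.15 without that cell. In Tcf7- Havcr2- cells the same libraries stood at 16.5 against 38.4 CPM, and in Havcr2+ cells at 32.0 against 32.8 CPM.

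Against anti-PD-L1 alone, ribosomal protein genes stood higher with 2DG plus anti-PD-L1, at a median of 0.50 with 79 of 80 above 0, and with 2FF plus anti-PD-L1, at 0.27 with 77 of 80 above 0. Klf2 had ratios of 1.07 and 0.56, Lef1 of 0.44 and 0.83, and Tox of -0.88 and -0.47. Ccr7 stood at -0.56 and -0.25. Glycolysis genes had medians of -0.30 and -0.27 and cytokines of -0.02 and -0.48, with Ifng at -0.02 and -1.26. The N-glycan list had medians of -0.08, -0.08, -0.01, -0.22 and -0.02 over the 5 comparisons, and Mgat5 ratios of -0.15, -0.59, -0.06, 0.10 and -0.20. Some of the largest ratios rested on 1 cell. Fth1, the ferritin heavy chain, had 405 of its 490 control UMIs in 1 cell marked as a doublet, and its 2DG ratio of -2.23 was 0.12 without that cell. Cxcl9 in 2FF plus anti-PD-L1 had 100 of 123 UMIs in 1 cell, and its ratio of 3.41 was 1.20 without it and 0.09 without the cells marked as doublets, that cell among them. Cd86 in the same comparison had a ratio of 1.93, which was 0.48 without doublets. Fn1 (-3.51), Tmcc3 (-3.31) and Cxcl2 (-3.00) each had most of their UMIs of the anti-PD-L1 library in 1 cell, and were -1.15, -2.08 and -0.64 without their top cell. Without doublets Tmcc3 and Cxcl2 were -1.58 and -0.59, whereas Fn1, whose top cell was not marked as one, was -3.86. Fn1 in 2FF plus anti-PD-L1 was -2.14, 0.22 without that cell and -4.13 without doublets. Of the 30 ratios named by rank in the 5 comparisons, in which some genes recur, 24 stayed past 2-fold without the top cell.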

How the data were processed

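The deposited files hold raw counts of UMIs per gene and cell for 32285 genes. The authors made them with 10x Chromium 3' v3.1 libraries and Cell Ranger, version 7.0.0 per the file headers and the study's methods and 3.1.0 in the submitters' processing notes, on mm10. Whether introns were counted is not given in the sources used here. Cells with under 250 genes or over 5% mitochondrial UMIs were left out here, as in the study. The members, gene lists and gate contrasts were chosen with earlier results of these data known.

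UMIs were summed per library and gate. Genes with at least 100 UMIs over the sums were tested with edgeR 4.0.16 (R 4.3.3, quasi-likelihood, library block, Benjamini-Hochberg, 0.05), after a check on simulated data. DESeq2 1.42.0, no count filter, no block, thinning to 2000 UMIs, leaving out each library, and removal of simulated doublets (nearest neighbours in 30 components, scikit-learn 1.9.0) were alternatives. Doublets were kept in the main values. Totals were 61859753 to 73885214 UMIs a library. Intervals are exact 95% and cover counting error only. Named were the markers, the listed genes, the 10 highest and 10 lowest called genes of each gate contrast (at least 20 CPM, same sign in libraries with at least 20 cells in both gates; gate, ribosomal, mitochondrial, immunoglobulin, T cell receptor and haemoglobin genes left out, and some genes are not reported here), and the 3 highest and lowest ratios of each treatment comparison (UMIs in at least 10 cells). Gene positions are from GENCODE M21 and promoters from RefSeq, both GRCm38.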

Additional observations from a re-analysis of the deposited data

Results flagged for a closer look

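Of 42 sets of 6 library values tested (40 of ranked genes and 2 of genes detected per cell), 6 genes had 1 library whose log2 ratio between gates (CPM with 5 added) lay far from the other 5 by Dixon's criterion, where chance gives about 1 in 20. In 5 of the 6 it was the control library, with its 17 cells. Against Tcf7- Havcr2- cells, Nsg2 had a ratio of 4.35 in the control library (97.3 against 0 CPM) and 1.55 to 2.47 in the others, Tnfrsf26 of 3.42 against 1.38 to 2.15, and Wscd2 of -1.29 against -2.74 to -2.21. Adgrg1 had a ratio of -1.50 in the 2DG plus anti-PD-L1 library and -2.38 to -2.16 in the others. Against Havcr2+ cells, Cdh17 had a ratio of -3.69 in the control library and -2.17 to -1.64 in the others, and Neb of -0.537 against -3.07 to -2.33. Ranked genes were chosen for 1 direction in the libraries with at least 20 cells in both gates, a condition that left out the control library. The shared direction of the other 5 libraries was thus fixed by the choice. The part of cell number in these gaps was not tested.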

How the results depend on the processing

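Against Tcf7- Havcr2- cells, DESeq2, no count filter, the fit of 3 gates together, doublet removal and removal of cells with B cell UMIs (542 higher, 417 lower) kept the counts of called genes within 1.5 times of 684 and 613. Without the library block they were 324 and 294, and with cells thinned to 2000 UMIs 471 and 365 of 6506 genes. Against Havcr2+ cells thinning gave 880 and 848 of 7212 genes, and the other settings stayed within 1.5 times. Leaving out 1 library gave 519 to 813 higher and 437 to 630 lower against Tcf7- Havcr2- cells, and 1132 to 1542 and 1123 to 1530 against Havcr2+ cells. Without the control library 0 of 124 and 0 of 159 named calls were lost, and without the block 43 of 125 and 24 of 159. Bcl6 against Havcr2+ cells was -0.0179 with thinned cells, and Rsad2 0.184 with doublets removed. The causes were not tested.

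The shares of non-cycling CD8 T cells (control, then the single agents 2DG, 2FF and anti-PD-L1, then the combinations with 2DG and with 2FF) were 9.71, 7.98, 4.83, 5.78, 4.27 and 8.49% with at least 2 Tcf7 UMIs required and 10.5, 8.52, 5.59, 7.01, 5.43 and 8.49% with thinned cells. A limit of 10% mitochondrial UMIs, doublet removal and the exclusion of cells with Lyz2 or C1q UMIs left them within their counting intervals.

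Counts of genes past 2-fold depended on the pseudocount and the UMI minimum. For 2DG, 2FF and anti-PD-L1 against control, a pseudocount of 20 CPM gave 161, 161 and 170 higher genes, a minimum of 20 UMIs gave 753, 710 and 717 higher and 427, 383 and 342 lower, and thinning gave 153, 143 and 162 higher and 53, 44 and 50 lower. For the combinations with 2DG and with 2FF against anti-PD-L1, the pseudocount gave 20 and 21 higher and 42 and 21 lower, the minimum gave 121 and 103 higher and 265 and 175 lower, and thinning gave 43 and 22 lower and, for the second, 14 higher. Doublet removal gave 29 lower for the second. Without the cell with most UMIs, Fth1 (2DG against control) was 0.118 and Fn1 (2FF plus anti-PD-L1) 0.224. With doublets removed H2-Ab1 (2FF plus anti-PD-L1) was -0.259. Depth limits the control values, which rest on 143960 UMIs.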
